A study of Mus musculus with 4 samples.

Results

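*Adrb1*, *Adrb3*, *Adora2a* and *Creb1* lie on the signalling route by which brown adipose tissue is switched on. They were taken as every region of the deposited m6A peak table that the authors assigned by overlap to 1 of these 4 gene symbols, whatever its values. The rule found 6 of the 9243 regions in the table, in 4 of its 7077 genes. The table compares interscapular brown adipose tissue (iBAT) of *Mettl3* flox/flox mice with that of BKO mice, which carry the same floxed alleles and in addition *Ucp1*-iCre. Both groups were C57BL/6 mice on normal chow at 8 weeks of age. For each genotype RNA of 5 mice was pooled, and 1 library was made from fragments captured by an m6A antibody (IP) and 1 from fragments before capture (input). Cre is expressed from the *Ucp1* gene, so *Mettl3* deletion is directed to brown adipocytes and not to endothelial, immune, nerve and muscle cells of the tissue. The study reported METTL3 loss in whole iBAT, and deletion by cell type was not examined here.

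Sympathetic nerves release norepinephrine onto brown adipocytes, where β-adrenergic receptors couple through Gs to adenylyl cyclase. The rise in cAMP activates protein kinase A, which drives lipolysis and phosphorylates the transcription factor CREB, and CREB in turn acts on thermogenic genes. The receptor encoded by *Adrb3* is the main β-adrenergic receptor of mature brown adipocytes in mice, and the one encoded by *Adrb1* is best known there for its role in precursor cells. *Adora2a* encodes an adenosine receptor that also couples to Gs and is expressed in brown adipocytes and in endothelial cells. METTL3 is the catalytic subunit of the complex that writes m6A on mRNA, mostly near stop codons and in 3′-UTRs.

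The regions lie on 4 chromosomes of GRCm38, each over 1 gene only. *Adrb1* (ENSMUSG00000035283, chromosome 19, 56722117 to 56725150 in RefSeq) had a last-exon region of 423 bases (56723546 to 56723968) and a 3′-UTR region of 782 bases (56724412 to 56725193), whose far end the authors labelled intergenic. *Adrb3* (ENSMUSG00000031489, chromosome 8, 27225776 to 27230845, minus strand) had 1 region of 600 bases (27227944 to 27228543), which began in the 5′-UTR and had its center in exon 2. *Adora2a* (ENSMUSG00000020178, chromosome 10, 75316877 to 75334792) had a last-exon region of 1044 bases (75333026 to 75334069) and a 3′-UTR region of 442 bases (75334297 to 75334738). *Creb1* (ENSMUSG00000025958, chromosome 1, 64532794 to 64604548) had a last-exon region of 401 bases (64597231 to 64597631), with its center 7117 bases before the 3′ end of the gene in RefSeq. The *Adrb3* region was thus the only one of the 6 outside the last exon and 3′-UTR. The last-exon regions of *Adora2a* and *Creb1* began in the last intron and reached into the 3′-UTR by the authors' labels.

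Levels are given in RPM, the authors' read count plus 1 scaled to the total of the library, and the fold enrichment is the IP level divided by the input level. The libraries held 8309098 to 13687380 reads, as their RPM values imply, and 48.4% of the flox/flox IP reads but 28.7% of the BKO IP reads lay in listed regions. There is no replicate library, so no difference below has a replicate check or a p-value, and the 95% intervals cover counting error only. PCR copies were not separated, and most low counts were even, so 2 reads were treated as 1 fragment. *Mettl3* itself had no region in the table and gives no check of the labels. Of 12 markers of brown adipocytes, 10 had a region, *Ucp1* and *Adipoq* among them, and their summed input was 1298 RPM (flox/flox) and 2115 RPM (BKO), with 6 of the 10 higher in BKO (median log2 difference 0.07). For comparison, the input was higher in BKO for 5264 of all 7077 genes, with a median log2 difference of 0.81. By quantitative PCR of iBAT, the study reported lower *Ucp1*, *Cidea*, *Prdm16*, *Pparg*, *Adipoq* and *Fabp4* mRNA in BKO mice. The summed input, taken at listed regions only, does not show that fall, and *Adipoq* had the highest flox/flox input of the 10. *Pparg* was at 0 input reads at the intron region that stood for it, and *Elovl3* and *Ppargc1a* had no region. The skeletal muscle markers with a region (7 of 9, none of them without input reads) summed to 25.0 RPM (flox/flox) and 406 RPM (BKO), and each of the 7 was higher in the BKO input. Endothelial markers (5 of 6) summed to 266 and 179 RPM, although 3 of the 5 were higher in BKO (median log2 difference 0.21). All of the rest with a region were higher in BKO, where fibroblast markers (3 of 5) summed to 132 and 479 RPM, immune markers (3 of 6) to 8.50 and 32.3 RPM, and Schwann cell and neuron markers (3 of 5) to 12.6 and 21.4 RPM. The part of these differences in the values below was not tested.

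The β-adrenergic receptor gene *Adrb1* had far less 3′-UTR enrichment in BKO iBAT, while enrichment over its last exon was higher. At the 3′-UTR region the IP level was 68.1 RPM (565 reads) in the flox/flox library and 8.04 RPM (109 reads) in the BKO library. The input there was 5.10 RPM (44 reads) and 4.85 RPM (64 reads). The IP was therefore 8.48-fold lower, on inputs whose ratio had an interval that includes 0. The fold enrichment fell from 13.4 (8.70 to 20.5, the 95% counting interval, as in later brackets) to 1.66 (1.07 to 2.56), a log2 ratio of -3.01 (-3.89 to -2.13). At the last-exon region the IP level was 35.3 RPM (292 reads) for flox/flox mice and 20.5 RPM (279 reads) for BKO mice. The input fell further, from 16.1 RPM (141 reads) to 3.58 RPM (47 reads). The fold enrichment of this region thus went from 2.19 (1.65 to 2.91) to 5.71 (3.70 to 8.80), a log2 ratio of 1.38 (0.63 to 2.13). The higher ratio went with a lower input and not with a higher IP level. Both regions were called as peaks in both genotypes.

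**Figure D1:**
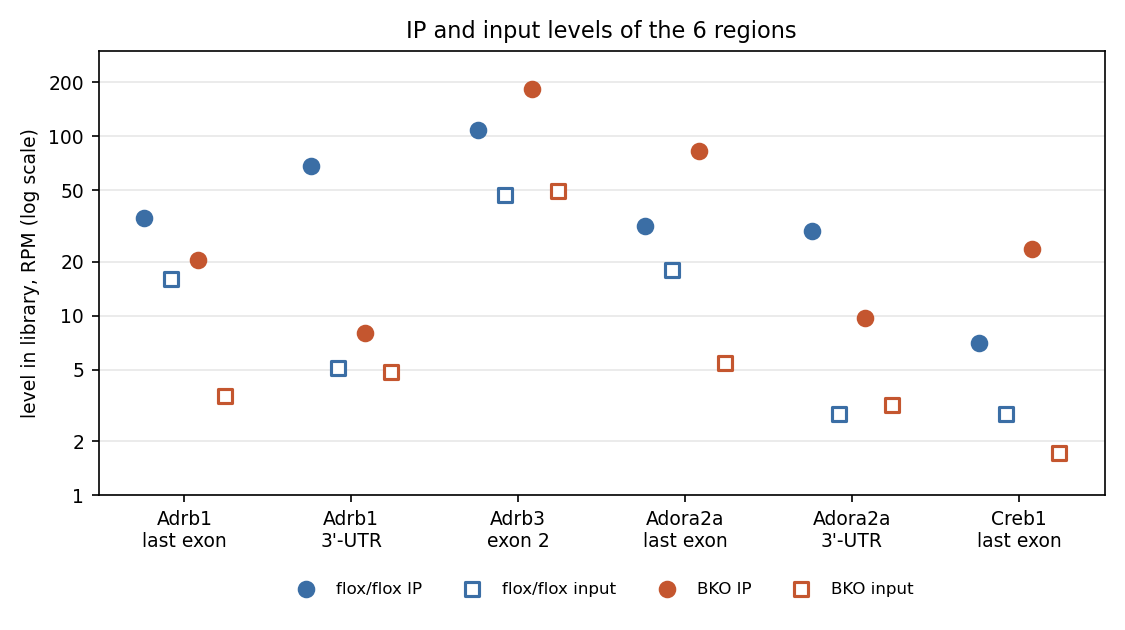
IP levels (filled circles) and input levels (open squares) of the 6 regions in the flox/flox (blue) and BKO (orange) libraries, in RPM on a log axis, with 1 library per point. *Adrb3* has the highest level in every library, and the input of the *Adrb1* and *Adora2a* last-exon regions is lower in BKO than in flox/flox iBAT.

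*Adrb3*, which encodes the β3-adrenergic receptor, had by far the most reads of the 6 regions, and its enrichment was moderately higher in BKO iBAT. Its IP level was 109 RPM (905 reads) without Cre and 183 RPM (2501 reads) with it. The input level was 46.9 RPM (413 reads) and 49.8 RPM (666 reads). The input log2 ratio, BKO over flox/flox, was 0.09 (-0.16 to 0.34), and -0.72 relative to the median of all regions. The fold enrichment went from 2.32 (1.97 to 2.74) to 3.67 (3.25 to 4.14), a log2 ratio of 0.66 (0.36 to 0.95). Among the 281 regions labelled exon 2, 62.3% had a lower log2 ratio. Per kilobase of region, the flox/flox input was 78.2 RPM at *Adrb3*, against 38.0 RPM at the *Adrb1* last exon, 17.3 RPM at the *Adora2a* last exon and 7.06 RPM at *Creb1*. These input levels per length came in the same order in BKO iBAT for *Adrb3* (83.0), the *Adrb1* last exon (8.47), the *Adora2a* last exon (5.22) and *Creb1* (4.28). The 3′-UTR regions of *Adrb1* and *Adora2a* had 6.21 to 7.26 RPM per kilobase in both inputs, so the order of *Adrb1*, *Adora2a* and *Creb1* depends on the region used in each genotype.

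The adenosine receptor gene *Adora2a* showed the same opposite pair of changes as *Adrb1*, with the larger change over the last exon. At the last-exon region the IP level was 31.9 RPM (264 reads) in flox/flox and as much as 83.0 RPM (1135 reads) in BKO iBAT. The input was 18.0 RPM (158 reads) and 5.45 RPM (72 reads). Here the IP was higher and the input lower in BKO iBAT. The fold enrichment went from 1.77 (1.34 to 2.34) to 15.2 (10.9 to 21.3), a log2 ratio of 3.10 (2.48 to 3.73). At the 3′-UTR region the opposite was seen, with an IP level of 29.7 RPM (246 reads) in flox/flox against 9.79 RPM (133 reads) in BKO iBAT. The input was 2.83 RPM (24 reads) and 3.21 RPM (42 reads). Enrichment at this region fell from 10.5 (5.87 to 18.8) to 3.05 (1.88 to 4.96), a log2 ratio of -1.78 (-2.88 to -0.69). The authors' table gives the last-exon region 3 summits, spread over 551 bases. Both regions were called in both genotypes.

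*Creb1*, which encodes the transcription factor that protein kinase A phosphorylates, was the member whose peak the authors called in the knockout alone. The IP level was 7.10 RPM (58 reads) against 23.5 RPM (321 reads) in the knockout. The input was the lowest of the 6 regions in each genotype, with 2.83 RPM (24 reads) and 1.72 RPM (22 reads), the former shared with the *Adora2a* 3′-UTR. The fold enrichment went from 2.51 (1.29 to 4.86) to 13.7 (7.53 to 24.9), a log2 ratio of 2.45 (1.16 to 3.74). The log2 ratio of the IP alone was 1.73 (1.16 to 2.29), and that of the input was -0.72 (-1.88 to 0.43), an interval that includes 0 on these few reads.

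**Figure D2:**
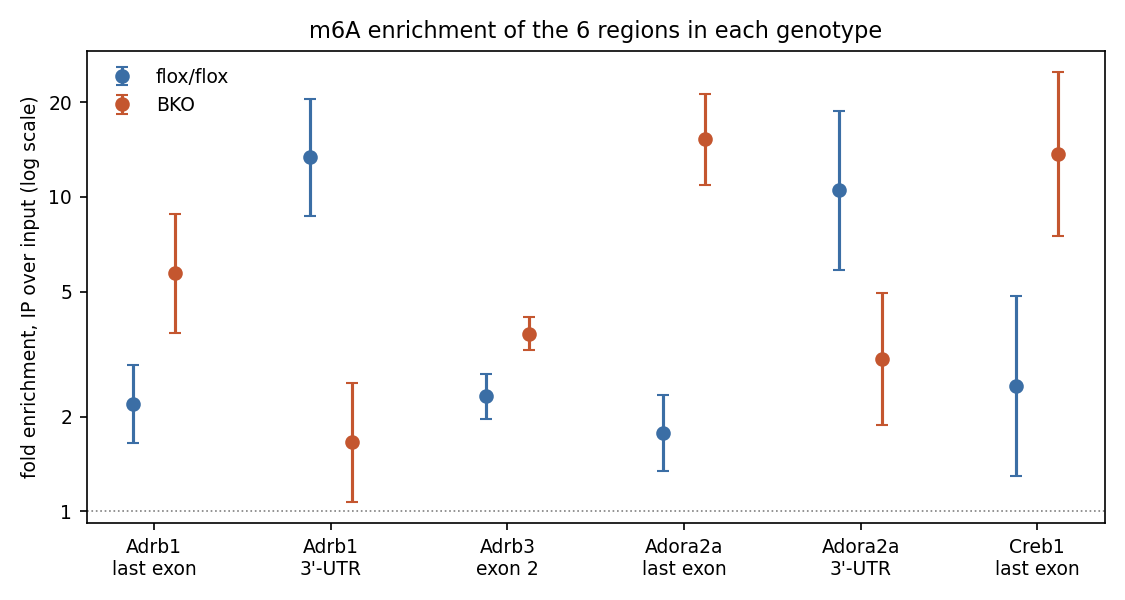
Fold enrichment (IP over input, log axis) of the 6 regions in flox/flox (blue) and BKO (orange) iBAT, with 95% counting intervals. The 3′-UTR regions of *Adrb1* and *Adora2a* are more enriched in flox/flox iBAT (13.4 and 10.5), and the other 4 regions in BKO iBAT.

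Enrichment was at least 2-fold higher in BKO iBAT at 3 of the 6 regions, the last exons of *Adrb1*, *Adora2a* and *Creb1*, against 18.6% of all regions. It was at least 2-fold lower at 2, the 3′-UTRs of *Adrb1* and *Adora2a*, against 50.8% of all regions. All 3 last-exon regions were past the first threshold, which 18.2% of the 2290 regions with this label passed. Both 3′-UTR regions were past the second, as were 58.8% of the 2937 regions with that label, so their fall was near the common pattern. The *Adrb1* 3′-UTR value was lower than most (16.1% of 3′-UTR regions lay below it), and the *Adora2a* 3′-UTR value was close to the middle (41.6% below it). Of last-exon regions, 86.9% had a lower log2 ratio than *Adrb1*, 95.8% a lower one than *Creb1* and 98.2% a lower one than *Adora2a*. The median log2 ratio was 1.02 over the 6 regions and -1.05 over all regions. After subtraction of that median 4 regions were at least 2-fold higher (34.1% of all regions) and 1 was lower (31.5% of all regions), since *Adrb3* then stood at 1.71 and the *Adora2a* 3′-UTR within 2-fold. With 4 genes chosen by name, these counts are descriptions. A called peak in both genotypes was found for 5 of the 6 regions, against 38.2% of all regions. The study reported that BKO peaks were spread over the stop codon, 5′-UTR and transcription start, with another enriched motif than flox/flox peaks. Whether the higher enrichment in BKO iBAT reflects m6A was not tested here.

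**Figure D3:**
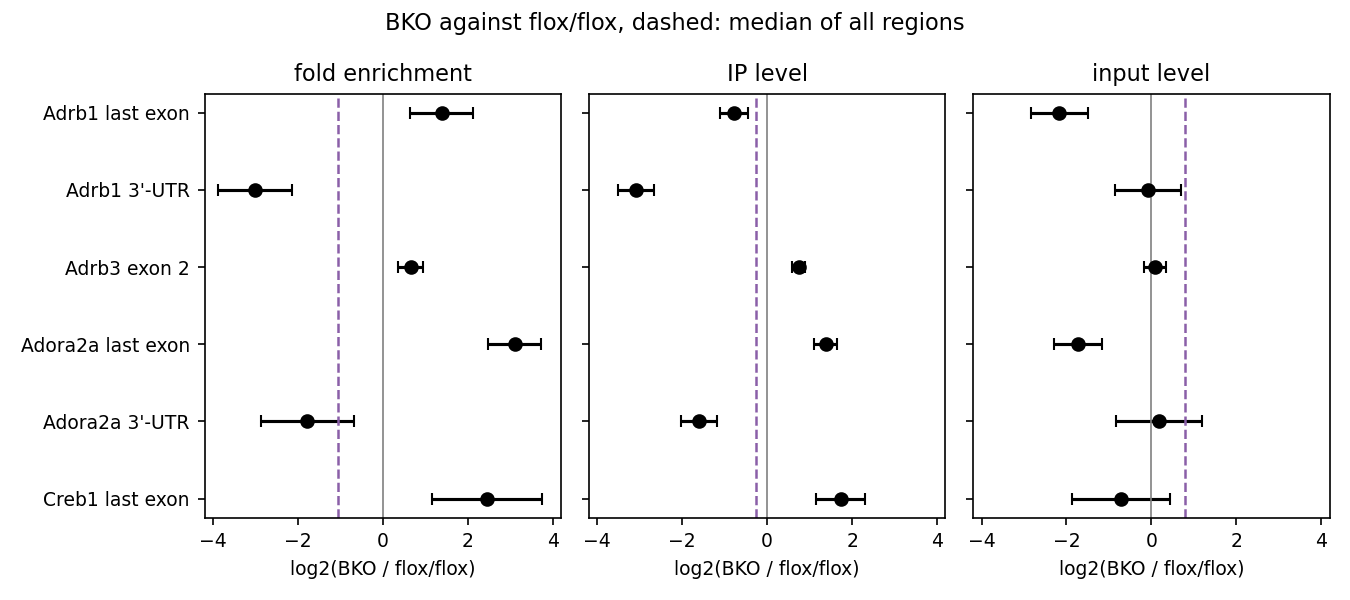
Log2 ratios (BKO over flox/flox) of fold enrichment, IP level and input level of the 6 regions, with 95% counting intervals, and the median of all regions as a dashed line. The last exons of *Adrb1* and *Adora2a* have input ratios of -2.17 and -1.72, far below the median of 0.80.

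The input libraries differed between genotypes in a way that depended on the region. At the last exon the log2 input ratio was -2.17 (-2.83 to -1.50) for *Adrb1* and -1.72 (-2.29 to -1.16) for *Adora2a*. The cause of these lower last-exon inputs was not tested, and bulk tissue does not separate cell numbers from RNA per cell. These 2 of 6 regions were at least 2-fold lower in BKO input, against 7.37% of all regions. In all regions, 2.13% had a lower input ratio than the *Adrb1* last exon and 3.02% a lower one than the *Adora2a* last exon. At the 3′-UTR of the same genes the input ratio was -0.07 (-0.85 to 0.70) for *Adrb1* and 0.18 (-0.82 to 1.19) for *Adora2a*. The *Adrb1* input was thus 4.49-fold lower at the last exon, while the 3′-UTR showed no difference beyond counting error, on 44 to 141 reads. For *Adora2a* the last exon was 3.30-fold lower and the 3′-UTR again showed none beyond counting error, on 24 to 158 input reads. The 2 regions of each gene therefore gave no single RNA level for it. The median input ratio of all regions was 0.80, and all 6 regions lay below it.

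Because 2 regions of the same gene share their libraries, the difference between their log2 ratios does not depend on how the libraries are scaled. The last exon minus 3′-UTR difference in enrichment was 4.39 (3.24 to 5.55) for *Adrb1* and 4.89 (3.63 to 6.15) for *Adora2a* on the log2 scale. The IP alone gave 2.30 (1.76 to 2.83) and 2.98 (2.47 to 3.49), and the input gave -2.10 (-3.12 to -1.07) and -1.91 (-3.06 to -0.75). In both genes the IP and the input each contributed to the shift in enrichment. Counted as reads, the last exon held 34.1% (29.7 to 38.7%, Wilson) of the *Adrb1* flox/flox IP reads of both regions and 71.9% (65.2 to 77.8%) of the BKO ones. Its share of the input reads was 76.2% (66.6 to 83.7%) and 42.3% (30.3 to 55.4%). For *Adora2a* the last exon held 51.8% (45.7 to 57.8%) of the flox/flox IP reads and 89.5% (86.9 to 91.7%) of the BKO ones. Its input shares were 86.8% (78.4 to 92.3%) and 63.2% (50.2 to 74.5%). In both genes the IP moved towards the last exon while the input moved away from it.

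**Figure D4:**
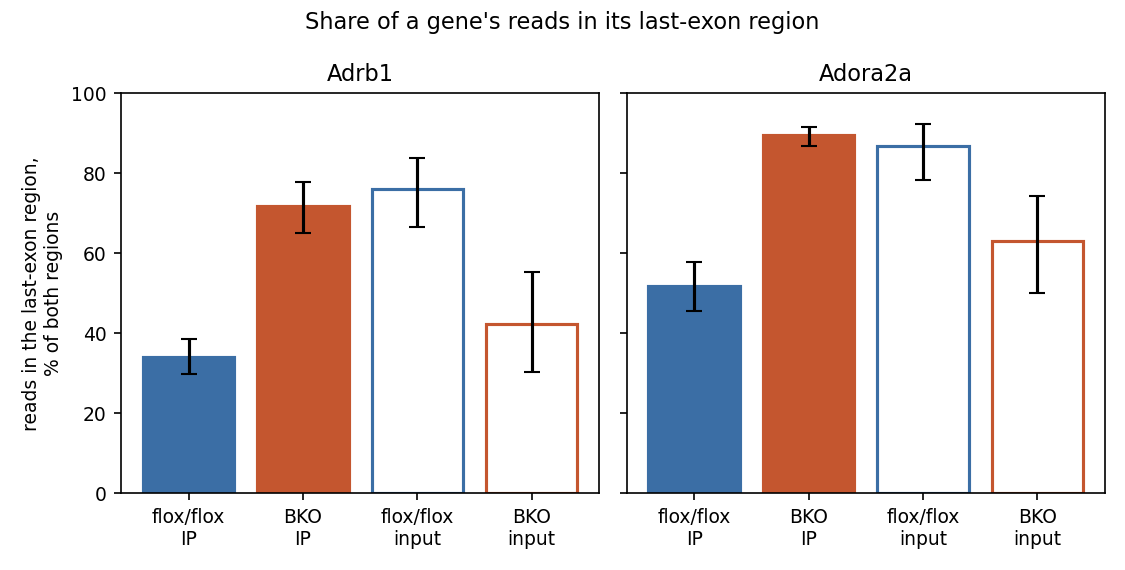
Reads in the last-exon region as a percentage of the reads in both regions of *Adrb1* and of *Adora2a*, per library, with 95% Wilson intervals on fragments of 2 reads. The share is higher in the BKO IP than in the flox/flox IP and lower in the BKO input than in the flox/flox input, in both genes.

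The table held 228 genes with both a last-exon and a 3′-UTR region. Of these, 54 (23.7%) had an enrichment at least 2-fold higher in the last exon and at least 2-fold lower in the 3′-UTR, as *Adrb1* and *Adora2a* had. A shift of enrichment towards the last exon was therefore common among these 228 genes, with a median difference of 2.09 and no input depth required. Over all regions of each label the median log2 ratios lay closer together, at -1.06 (last exon) and -1.44 (3′-UTR). Of the 228, 25 had a larger difference than *Adrb1* and 14 a larger one than *Adora2a*. An input difference of -1 or lower was found in 24.6% of these genes, among them both receptors, and the median was -0.08. Only 9 genes had a lower input difference than *Adrb1* and 12 a lower one than *Adora2a*.

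A single value per gene depends on how its regions are combined. For *Adrb1* the most enriched region gave a log2 ratio of -3.01, the mean of both regions -0.82, and counts summed over both -0.53 (-1.06 to 0.01). The sums were 857 and 388 IP reads and 185 and 111 input reads, for fold enrichments of 4.90 and 3.40. For *Adora2a* these values were 3.10, 0.66 and 1.86 (1.34 to 2.38), with summed fold enrichments of 2.97 and 10.8. *Adora2a* therefore stayed higher in BKO iBAT by each of them, and the summed interval of *Adrb1* included 0.

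The regions most like each gene's most enriched region were found by the distance over the log2 levels of the 4 libraries, after centring each region, among 3378 regions of other genes whose input reached 20 reads in each genotype. For the *Adrb1* 3′-UTR they were the 3′-UTRs of *Pradc1*, *Nit1* and *Foxn3*, at distances of 0.15, 0.18 and 0.18. For *Adrb3* they were the 3′-UTRs of *Ankrd10* and *Rbms2*, at 0.07 each, and an intron of *Son* at 0.09. *Adora2a* had less close neighbours, the last exon of *Cyp1a1*, a cytochrome P450 gene (0.27), the 3′-UTR of *Nab2* (0.58) and intron 15 of *Grk2* (0.59). *Grk2* encodes the kinase that phosphorylates active β-adrenergic receptors. *Creb1* was nearest to the 3′-UTRs of *Pdgfb* (0.28) and *Gmeb2* (0.30). The nearest of these, *Pdgfb*, had fold enrichments of 3.21 and 13.9.

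Other genes of the cAMP pathway went both ways. Of 94 listed genes 49 had a region, and by the most enriched region 23 (46.9%) were at least 2-fold lower in BKO iBAT, against 56.5% of all 7077 genes. At least 2-fold higher were 14 (28.6%), against 17.0% of all genes. In 5 of the 49 (*Adcy7*, *Prkar2b*, *Rapgef4*, *Pde1c* and *Grk3*) the input held 0 reads in at least 1 genotype, so their values rest on the added count, although all 5 are counted, the first as higher and the others as lower. The median log2 ratio was -0.88 over the list and -1.34 over all genes, and without the 4 members 22 of 45 were lower and 12 higher. After subtraction of the median of all regions, 10 genes of the list were lower, against 36.5% of all genes, and 22 were higher, against 29.9%. When 20 input reads were required in each genotype, 34 genes of the list were left, with a median of -0.11, against -1.30 for the 3605 genes of that depth. Without the 4 members 30 genes of that depth were left, with a median of -0.90, so the members carried much of that difference. The median input ratio of the list was 0.12, and 0.35 without the members, against 0.81 for all genes.

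Among receptors of the list, 7 of 13 had a region. *Adora1*, which encodes a Gi-coupled adenosine receptor, was lower in BKO iBAT (-1.23, -1.92 to -0.54), and so was the α-adrenergic receptor gene *Adra1d* (-2.41, -3.01 to -1.82), at a region labelled intergenic. *Adora2b*, the other Gs-coupled adenosine receptor gene, had a last-exon log2 ratio of 2.32 with an interval that includes 0 (-0.77 to 5.41), on 2 and 8 input reads.

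Downstream of the receptors, the 4 of 9 G protein genes with a region comprised 2 lower genes, *Gnal* (-1.90, in a region over 2 genes) and *Gnb1* (-1.69), and 2 higher ones, *Gnai2* (2.69, first exon) and *Gnai3* (2.18). *Gnai2* and *Gnai3* encode subunits of the inhibitory protein Gi. Of 5 adenylyl cyclase genes with a region 3 were lower, among them *Adcy4* (-2.68, -3.79 to -1.57), and *Adcy6* was higher (1.37, 1.05 to 1.70). *Adcy9* had the lowest value of that group (-3.50), in a region over 2 genes with 25 flox/flox and 439 BKO input reads. Of 2 genes for the cAMP sensors Epac only *Rapgef4* had a region, with 86 flox/flox and 2 BKO IP reads but 0 input reads in either genotype. Of protein kinase A subunits and anchors 6 of 13 had a region, 3 of them lower and 2 higher, where *Akap8* was lower (-1.26, -1.91 to -0.61) and *Akap13* higher (2.33, 1.02 to 3.64). Of cAMP phosphodiesterases, which end the signal, 6 of 15 had a region, 2 lower and 2 higher by 2-fold, and of these 4 only *Pde4d* (-1.61, -1.98 to -1.23) reached 20 input reads in each genotype. *Pde3b* (-0.92, -1.19 to -0.64) and *Pde7a* (0.98, 0.08 to 1.88, in a region over 2 genes) did not pass 2-fold, with intervals that exclude 0. Of the genes that desensitize receptors 5 of 9 had a region, 2 lower and 2 higher by 2-fold, and of these 4 only *Grk2* (3.10, 2.07 to 4.12) reached 20 input reads in each genotype. *Rgs2* (0.99, 0.28 to 1.71) did not pass 2-fold.

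The CREB family and its coactivators had a region in 10 of 15 genes, of which 6 were at least 2-fold lower and 2 higher, shares close to the 56.5% and 17.0% of all genes. The 2 higher ones were *Creb1* and *Crebbp*, which encodes the coactivator that binds phosphorylated CREB, with a log2 ratio of 2.72 (2.02 to 3.41). The lower ones included *Atf4* (-1.90, -2.47 to -1.34) and *Crtc2* (-1.81, -2.44 to -1.18), a coactivator of CREB that cAMP brings to the nucleus. *Crem*, which encodes a close relative of CREB, had -1.56 (-2.39 to -0.72). None of the 5 genes among cAMP-induced targets with a region passed 2-fold, and *Nr4a1* (0.67, 0.32 to 1.02) and *Per1* (0.78, 0.04 to 1.52) had intervals above 0. The input of *Nr4a1*, an immediate early gene, had a log2 ratio of -2.21, and that of *Fos*, another such gene, 2.40 (16 and 135 reads).

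**Figure D5:**
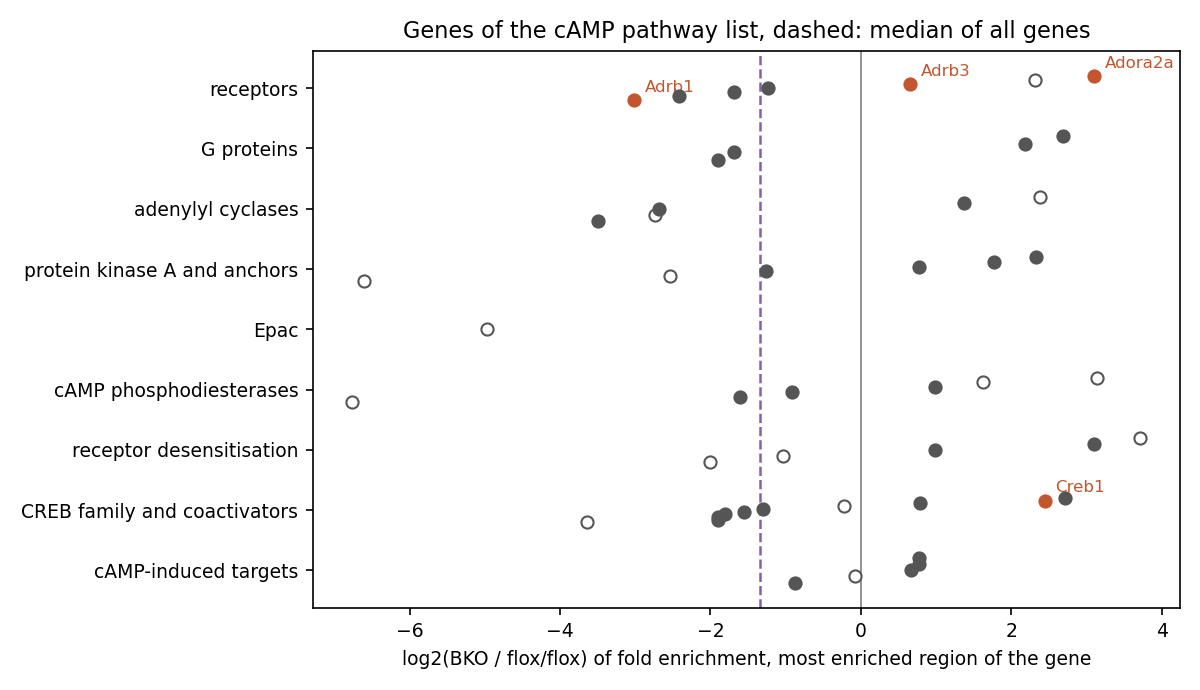
Log2 ratios of fold enrichment (BKO over flox/flox) for the 49 genes of the cAMP pathway list with a region, by functional group, each at its most enriched region. Filled points reach 20 input reads in each genotype, orange points are *Adrb1*, *Adrb3*, *Adora2a* and *Creb1*, and the dashed line is the median of all genes (-1.34).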

How the data were processed

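m6ARIP-seq of iBAT gave 1 IP and 1 input library per genotype. Reads were trimmed with skewer, mapped with BWA (0.7.12-r1039) to the mouse genome GRCm38 and searched for peaks with MACS2 (2.1.0), per the submitters' processing notes and the study's methods. The rule for joining peaks between genotypes and for counting reads is not given in the sources used here. A deposited table holds raw read counts per region. The authors scaled these counts plus 1 to RPM. Their fold enrichment, also deposited, is a ratio, IP RPM divided by input RPM. Both fold enrichments lie above 1 at every listed region. The added 1 pulls regions of few reads towards a ratio of 1. A column with the authors' own log2 comparison was not used, and log2 ratios were recomputed from the RPM values. Fold enrichments recomputed from RPM equalled the deposited ones.

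Intervals (95%) were taken on the log scale from counts plus 1 at 2 reads per fragment, and shares have Wilson intervals over the same fragments. The intervals of log2 ratios were tested on simulated data drawn with the same 2 reads per fragment. That simulation held no variation between libraries or mice, so it cannot show how well the intervals suit the real libraries. All 6 regions had at least 20 input reads in both genotypes. A gene with several regions was represented by its most enriched one in either genotype. Counts of regions and genes past 2-fold are set beside the same over the whole table. All 4 symbols matched RefSeq's GRCm38.p6 gene table, used for gene coordinates. The members, the gene lists and the tests were chosen with earlier results of these data known. All regions of the 4 genes are described; from the cAMP list, genes with at least 20 input reads and an interval that excludes 0 were named, the largest in each direction first, and *Adora2b*, *Fos* and the genes with 0 input reads were added after their values were seen, as were the comparison of regions within a gene and its background over genes with both labels. The alternatives were the added count, centring, scaling, the fold and input thresholds, the reads per fragment and how regions of a gene are combined. Sequences under the regions were not analysed here, and some genes are not reported here. Python 3.11.15, pandas 2.3.3, NumPy 2.4.6 and Matplotlib 3.10.9 were used.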

Additional observations from a re-analysis of the deposited data

How the results depend on the processing

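Over 82 alternative values none reversed a direction whose interval excluded 0, and 58 stayed within the interval or within 1.5 times the count, among them all 28 with 0.5 or 5 added to each count. Not all of the 82 could reverse. Counts have no direction, the reads per fragment alter only the interval, and *Adrb3* and *Creb1* have just 1 region to combine. With the median of all regions subtracted, the log2 ratios of enrichment were 2.43 and -1.96 (*Adrb1* last exon and 3′-UTR), 1.71 (*Adrb3*) and 4.15 (*Adora2a* last exon), and 1 region in place of 2 stayed at least 2-fold lower. Scaled to the reads in listed regions, they were 2.51 and -1.89 (*Adrb1*), 1.78 (*Adrb3*), and 4.23 and -0.66 (*Adora2a*). With the median input ratio subtracted, input ratios were -2.97 and -0.87 (*Adrb1*), -0.72 (*Adrb3*) and -2.53 (*Adora2a* last exon), and scaled to listed regions that of *Adrb3* was -0.28. The input of *Adrb3* thus has no settled direction in these 2 libraries. By quantitative PCR of iBAT, the study reported significantly lower *Adrb3* mRNA in BKO mice. By gene, *Adrb1* was at -0.82 and *Adora2a* at 0.66 as the mean of regions, and at -0.53 and 1.86 with summed counts. Of the cAMP list, 23 lower and 14 higher genes became 10 and 22 after centring on all regions, and 15 and 9 with at least 20 input reads, where fewer genes are counted. Past 1.5-fold, 25 were lower and 22 were higher. The shares of all genes past 1.5-fold, or at that input depth, were not computed, so these counts describe the list only. Within-gene differences (4.39 and 4.89) were 4.24 and 4.72 with 5 added, an alternative chosen after the table was seen. Input depth was low at *Creb1* (24 and 22 reads) and at the *Adora2a* 3′-UTR (24 and 42 reads).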

Other observations

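The *Adrb3* region was more enriched in BKO iBAT. A region near that gene, which the authors did not assign to *Adrb3* by overlap, was less enriched there. It is labelled last exon of ENSMUSG00000109674 (chromosome 8, 27239157 to 27239636 in GRCm38), and its closest start site is that of *Adrb3*. The table places this gene at 27228686 to 27239752 on the plus strand, so its start overlaps *Adrb3* (27225776 to 27229588, minus strand). The region held 115 IP and 9 input reads in flox/flox and 25 IP and 21 input reads in BKO iBAT. The fold enrichments were 12.3 and 1.16, a log2 ratio of -3.41 (95% counting interval -5.17 to -1.66), while the *Adrb3* region 10614 bases away had 0.66. This region was singled out after its values were seen.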
